A study of Mus musculus with 6 samples.

Results

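The 10 genes described here make up the core loop of the circadian clock and the kinases that act on its PER proteins. They were chosen by gene symbol and are *Clock*, *Arntl*, *Npas2*, *Per1*, *Per2*, *Per3*, *Cry1*, *Cry2*, *Csnk1d* and *Csnk1e*, each with 1 of the 37979 entries of the expression table. Of the 10 genes, 9 were among the 12334 entries whose mean reached 0.5 FPKM (fragments per kilobase of transcript, corrected for library size), which were tested, and *Npas2* lay under that filter. RNA-seq was done on the hindlimb gastrocnemius (GAS) muscles of male mice, 20 weeks of age, 3 wildtype (WT) and 3 Kvβ2 knockout (KO), with 1 library per mouse. The KO mice lack Kvβ2, an accessory subunit of voltage-gated potassium channels encoded by *Kcnab2*, in the whole body. Both genotypes came from crosses between mice heterozygous for the null allele, and none was treated. The libraries of each genotype carry the replicate numbers 1, 7 and 8. The time of day at which the muscles were taken is not given in the sources used here.

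In the core loop, CLOCK or its paralog NPAS2 pairs with BMAL1, the product of *Arntl*, and the pair binds E-box sequences and activates *Per* and *Cry* genes. PER and CRY proteins then enter the nucleus and repress that pair, while casein kinases 1 delta and epsilon phosphorylate PER and set the pace of its decay. In most tissues, skeletal muscle included, *Arntl* and *Per2* messages peak at opposite phases of the day, and *Per1* also responds directly to glucocorticoid and to acute stimuli.

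The sequences below show the clock elements found in the promoters of 5 of these genes. RefSeq promoter windows (GRCm38.p6), each running from 250 bases before an annotated start site to a short stretch after it, matched 8 of the 10 genes, all but *Per2* and *Csnk1d*, in 15 windows. They were searched on both strands for 5 motifs, the E-box CACGTG, the E'-box CACGTT, the D-box TTATGTAA, the core of the ROR element TAGGTCA and the cAMP response element TGACGTCA. Of all 32851 windows of the genome, 7.15% held an E-box, 4.68% an E'-box, 0.938% a D-box, 2.61% a ROR core and 1.79% a cAMP response element. In the stretches printed here, 5′ to 3′ on the strand of the gene, capitals mark a match, and an E'-box on the other strand reads AACGTG.
Per1 (chr11:69098699-69098947, plus strand): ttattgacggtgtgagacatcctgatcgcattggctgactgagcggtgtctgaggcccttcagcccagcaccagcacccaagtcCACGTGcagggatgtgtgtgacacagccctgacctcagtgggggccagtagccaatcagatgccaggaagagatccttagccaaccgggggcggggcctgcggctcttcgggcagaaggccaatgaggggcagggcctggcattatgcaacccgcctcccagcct
Cry1 (chr10:85185065-85185304, minus strand): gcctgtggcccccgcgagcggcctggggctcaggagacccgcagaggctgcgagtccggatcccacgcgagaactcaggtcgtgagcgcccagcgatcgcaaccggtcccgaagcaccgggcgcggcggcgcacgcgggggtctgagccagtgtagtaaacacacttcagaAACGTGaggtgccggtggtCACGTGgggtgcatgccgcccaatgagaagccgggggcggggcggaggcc
Per3 (chr4:151044666-151044915, minus strand): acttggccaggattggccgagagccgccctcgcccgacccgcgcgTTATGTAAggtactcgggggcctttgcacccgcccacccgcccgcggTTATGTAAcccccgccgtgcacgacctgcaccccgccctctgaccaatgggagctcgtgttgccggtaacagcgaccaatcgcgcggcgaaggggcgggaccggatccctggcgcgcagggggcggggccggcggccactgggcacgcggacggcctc
Cry2 (chr2:92434220-92434245, minus strand): acatggtgggAACGTGagggggcgga
Arntl (chr7:113207531-113207556, plus strand): aggcagaaagTAGGTCAgggacggag

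The *Per1* stretch lies upstream of an internal first exon, within an intron of the longer *Per1* transcript, and holds 1 E-box that begins at position -166 from that start site. The *Cry1* stretch holds an E-box at position -60 and an E'-box at -79 on the other strand. The *Per3* stretch lies within an intron of *Camta1* and holds 2 D-boxes, which begin at positions -205 and -158 from the start site, and 7 of the 32851 windows (0.0213%) held 2 or more D-boxes. The 26 bases of *Cry2* surround an E'-box in its upstream region, and the 26 bases of *Arntl* surround a ROR core in its first, untranslated exon. No window of *Clock*, *Npas2* or *Csnk1e* held any of the 5 motifs. A match describes these letters and does not show that a factor binds there.

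Both differences between the genotypes and differences among mice of 1 genotype were seen. *Arntl*, *Npas2*, *Per2* and *Per3* varied most between the WT mice, whereas the KO libraries of *Clock* and *Cry1* lay under, and those of *Per1*, *Cry2* and *Csnk1e* lay above, every WT library. At an adjusted p under 0.05 (limma on log2(FPKM + 0.1), Benjamini-Hochberg over all tested genes), 0 of the 9 tested genes differed between the genotypes. The background at that threshold was 0.251% of all tested genes higher and 0.073% lower in KO muscle. At an unadjusted p under 0.05, *Per1*, *Cry2* and *Csnk1e* were higher and *Clock* and *Cry1* were lower, that is 3 and 2 of 9 genes, where 15.3% of all tested genes were higher and 10.9% were lower. Non-overlap of the libraries, KO above WT, was seen for the same 3 genes and 18.3% of tested genes, and KO below WT for the same 2 genes and 16.2% of tested genes. The median log2 fold change was 0.48 over the 9 genes and 0.010 over all tested genes, and the median size of the change, regardless of sign, was 0.76 and 0.27. Levels are given as FPKM, and log2 fold changes (KO minus WT, on the FPKM + 0.1 scale, with standard errors, SE) understate the change of genes with low FPKM. In whole muscle, fewer cells of a type and less RNA per cell cannot be told apart.

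**Figure D1:**
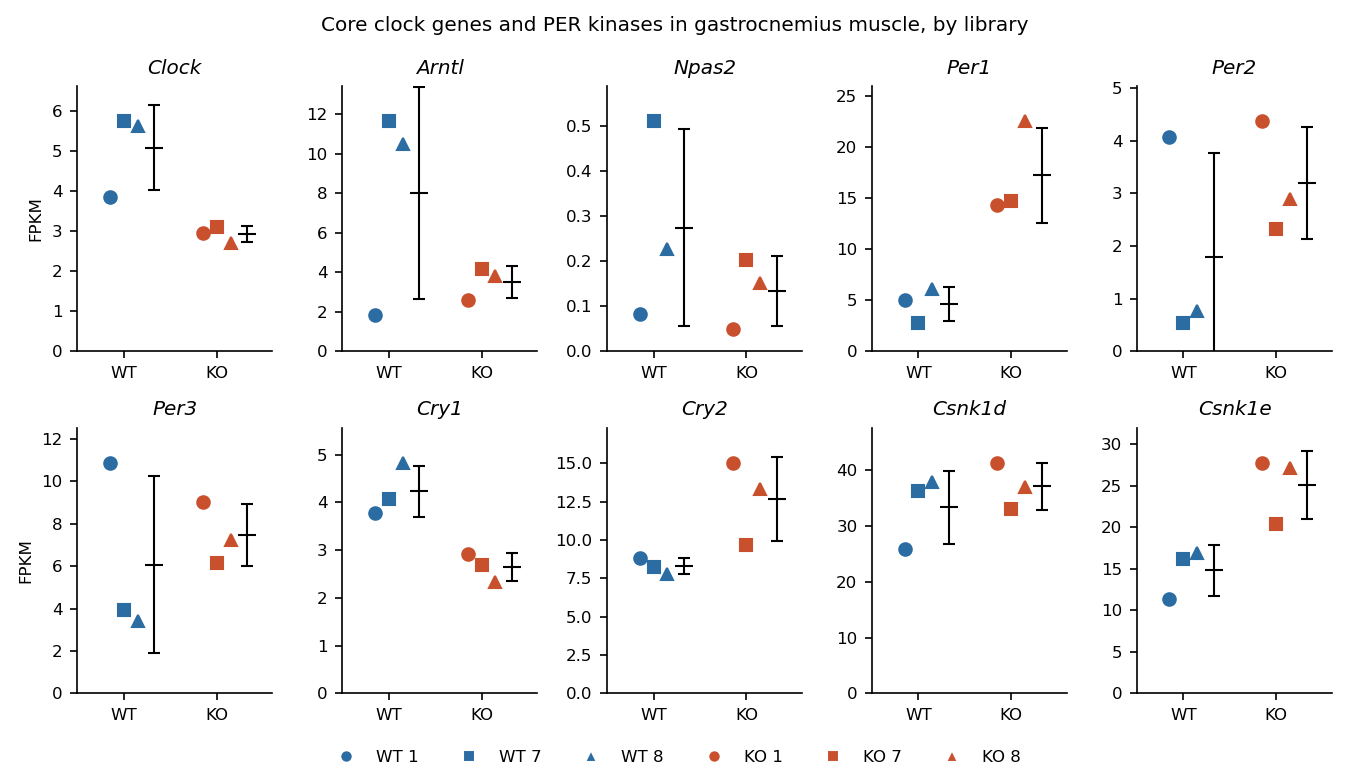
FPKM (vertical axis, linear, from 0) of each of the 10 genes in the 3 WT (blue) and 3 KO (orange) libraries, with the replicate number given by the shape of the point and the mean ± SD (n = 3) in black, cut at 0 where the SD is larger than the mean. KO points lie above all WT points for *Per1*, *Cry2* and *Csnk1e* and under them for *Clock* and *Cry1*, whereas WT replicate 1 lies among or beyond the KO points for *Arntl*, *Npas2*, *Per2* and *Per3*.

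Among the activators, *Clock* (ENSMUSG00000029238, chromosome 5, 76209868 to 76304792, minus strand, GRCm38), which encodes the partner of BMAL1, measured 3.85, 5.75 and 5.63 FPKM in the WT mice (1, 7, 8) and 2.95, 3.10 and 2.71 FPKM in the KO mice (1, 7, 8). The lowest WT library was thus above the highest KO library, and WT replicate 1 lay nearest to the KO libraries. The log2 fold change was -0.76 (SE 0.18, limma, adjusted p = 0.0776), and the spread (SD, n = 3) was 1.06 FPKM between WT and 0.196 FPKM between KO mice. Leaving out 1 mouse at a time gave -0.94 to -0.66. *Clock* had the lowest GC content of the 10 genes (41.5%), and the median log2 fold change of tested genes within 1 percentage point of that GC content was -0.31. After correction for GC content the log2 fold change of *Clock* was -0.44 (SE 0.20, limma, adjusted p = 0.504), and its libraries overlapped between the genotypes.

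*Arntl* (ENSMUSG00000055116, chromosome 7, 113207465 to 113314126, plus strand), the BMAL1 gene and the one activator whose loss stops the clock, had 1.84, 11.7 and 10.5 FPKM across WT mice 1, 7 and 8 against 2.62, 4.18 and 3.80 FPKM across the KO mice. WT replicates 7 and 8 lay above every other library and WT replicate 1 lay under every other library, so the groups overlapped. The WT libraries spanned 2.60 on the log2 scale, a wider range than that of 98.3% of the tested genes, and the KO libraries spanned 0.65. The log2 fold change of -0.80 (SE 0.64, limma, adjusted p = 0.448) was smaller than the WT range. Leaving out WT replicate 1 gave -1.65 (SE 0.22, limma, adjusted p = 0.120), and leaving out WT replicate 7 gave -0.35.

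*Npas2* (ENSMUSG00000026077, chromosome 1, 39193731 to 39363236, plus strand), which can stand in for *Clock*, was the lowest of the 10 genes. It read 0.0830, 0.513 and 0.227 FPKM in WT mice 1, 7 and 8 and 0.0492, 0.202 and 0.152 FPKM in KO mice 1, 7 and 8. These levels rest on about 2.99 to 41.8 fragments per library by the depth estimate, and the groups overlapped. The difference of the mean log2 values, KO minus WT, was -0.56 (SE 0.50, limma with no filter on low FPKM, adjusted p = 0.587). The ratio of *Clock* to *Npas2* within a library (FPKM + 0.1) was 21.6, 9.55 and 17.5 in WT and 20.5, 10.6 and 11.1 in KO muscle, so these ratios overlapped too (log2 difference -0.19, exact permutation test, two-sided, p = 0.9).

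Of the repressors, *Per1* (ENSMUSG00000020893, chromosome 11, 69095217 to 69109960, plus strand) showed the widest separation. *Per1* measured 4.99, 2.81 and 6.07 FPKM in the WT mice (1, 7, 8) and 14.3, 14.7 and 22.6 FPKM in the KO mice (1, 7, 8). Each KO library was above each WT library, and KO replicate 8 was the highest. The WT mean was 4.62 ± 1.66 FPKM (SD, n = 3) and the KO mean 17.2 ± 4.65 FPKM (SD, n = 3), 3.72-fold apart, with a log2 fold change of 1.91 (SE 0.30, limma, adjusted p = 0.0667). Leaving out 1 mouse at a time gave 1.59 to 2.14. *Per1* had the highest GC content of the 10 genes (58.9%), and the median log2 fold change of genes of like GC content was 0.57. After correction for GC content that of *Per1* was 1.33 (SE 0.32, limma, adjusted p = 0.286), and its KO and WT libraries still did not overlap.

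*Per2* and *Per3* followed another order of libraries. *Per2* (ENSMUSG00000055866, chromosome 1, 91415982 to 91459324, minus strand), a rate-limiting part of the repressor complex, had 4.07, 0.548 and 0.768 FPKM across WT mice 1, 7 and 8 against 4.38, 2.32 and 2.89 FPKM across the KO mice. The WT libraries differed up to 7.42-fold, since WT replicate 1 lay above KO replicates 7 and 8 and the other WT libraries lay under all KO libraries. The log2 fold change of 1.26 (SE 0.65, limma, adjusted p = 0.258) was smaller than the WT range of 2.68 on the log2 scale. Leaving out WT replicate 1 gave 2.09 (SE 0.31, limma, adjusted p = 0.120), and leaving out WT replicate 7 gave 0.75.

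*Per3* (ENSMUSG00000028957, chromosome 4, 151003652 to 151044665, minus strand), the paralog that is not needed for rhythm, read 10.9, 3.91 and 3.40 FPKM in WT mice 1, 7 and 8 and 9.03, 6.16 and 7.21 FPKM in KO mice 1, 7 and 8. As for *Per2*, both libraries numbered 1 were the highest of the 6 and WT replicates 7 and 8 were the lowest. The log2 fold change was 0.48 (SE 0.41, limma, adjusted p = 0.476), against 0.996 when WT replicate 1, and 0.17 when WT replicate 8, was left out. The gene lies inside *Camta1* on the same strand, which was at a mean of 22.8 FPKM in WT and 18.7 FPKM in KO muscle and has no annotated exon within *Per3*.

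The cryptochromes, the repressors that bind the CLOCK and BMAL1 pair directly, differed in opposite directions. *Cry1* (ENSMUSG00000020038, chromosome 10, 85131700 to 85185064, minus strand) measured 3.79, 4.06 and 4.83 FPKM in the WT mice (1, 7, 8) and 2.92, 2.69 and 2.34 FPKM in the KO mice (1, 7, 8). *Cry2* (ENSMUSG00000068742, chromosome 2, 92403646 to 92434043, minus strand) had 8.80, 8.27 and 7.78 FPKM across WT mice 1, 7 and 8 against 15.05, 9.70 and 13.3 FPKM across the KO mice. Neither gene overlapped between the genotypes, with *Cry1* lower and *Cry2* higher in each KO library, and KO replicate 7 was the closest to WT for *Cry2*. The log2 fold changes were -0.65 for *Cry1* (SE 0.15, limma, adjusted p = 0.0753) and 0.59 for *Cry2* (SE 0.17, limma, adjusted p = 0.102). *Cry1* has the same GC content (50.1%) as the median tested gene, and the correction for GC content left its log2 fold change at -0.65 with no overlap, while that of *Cry2* (GC content 54.3%) became 0.30 and its libraries overlapped.

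The ratio of *Cry1* to *Cry2* within a library does not depend on how that library was scaled. It was 0.437, 0.497 and 0.626 in WT replicates 1, 7 and 8 and 0.200, 0.284 and 0.182 in KO replicates 1, 7 and 8. Each WT ratio lay above each KO ratio. This follows from the levels, since *Cry1* was lower and *Cry2* higher in each KO library. The non-overlap and the p of the ratio were thus fixed in advance and are no further evidence. Averaged on the log2 scale, the ratio was 2.36-fold lower in KO muscle (log2 difference -1.24, two-sided exact permutation p = 0.1, which 3 against 3 cannot go under). The log2 difference was -0.96 after correction for GC content. Leaving out 1 mouse at a time gave -1.43 to -1.10.

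The kinases were the most abundant of the 10 genes. *Csnk1d* (ENSMUSG00000025162, chromosome 11, 120961749 to 120991330, minus strand) read 25.8, 36.3 and 37.9 FPKM in WT mice 1, 7 and 8 and 41.4, 32.96 and 37.1 FPKM in KO mice 1, 7 and 8. WT replicate 1 lay under all other libraries, which overlapped. The log2 fold change was 0.17 (SE 0.17, limma, adjusted p = 0.550), and it was near 0 both without WT replicate 1 (-0.0044) and after correction for GC content (-0.0023). *Csnk1e* (ENSMUSG00000022433, chromosome 15, 79417856 to 79455566, minus strand), the paralog first known from a hamster with a short period, measured 11.3, 16.2 and 17.0 FPKM in the WT mice (1, 7, 8) and 27.8, 20.4 and 27.2 FPKM in the KO mice (1, 7, 8). Each KO library lay above each WT library, with a log2 fold change of 0.76 (SE 0.19, limma, adjusted p = 0.0837), 0.58 without WT replicate 1 and 0.37 after correction for GC content, under which the libraries overlapped. Genes of like GC content to *Csnk1e* (56.1%) had a median log2 fold change of 0.39.

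Although the level of each kinase varied between mice, their ratio before correction for GC content varied little between the WT mice. The ratio of *Csnk1d* to *Csnk1e* was 2.27, 2.23 and 2.23 in WT replicates 1, 7 and 8, with an SD of 0.014 on the log2 scale (n = 3), and 1.49, 1.61 and 1.36 in the KO replicates, with an SD of 0.12 (n = 3). All WT ratios lay above all KO ratios (log2 difference -0.60, exact permutation test, two-sided, p = 0.1). After correction for GC content the log2 difference was -0.37.

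**Figure D2:**
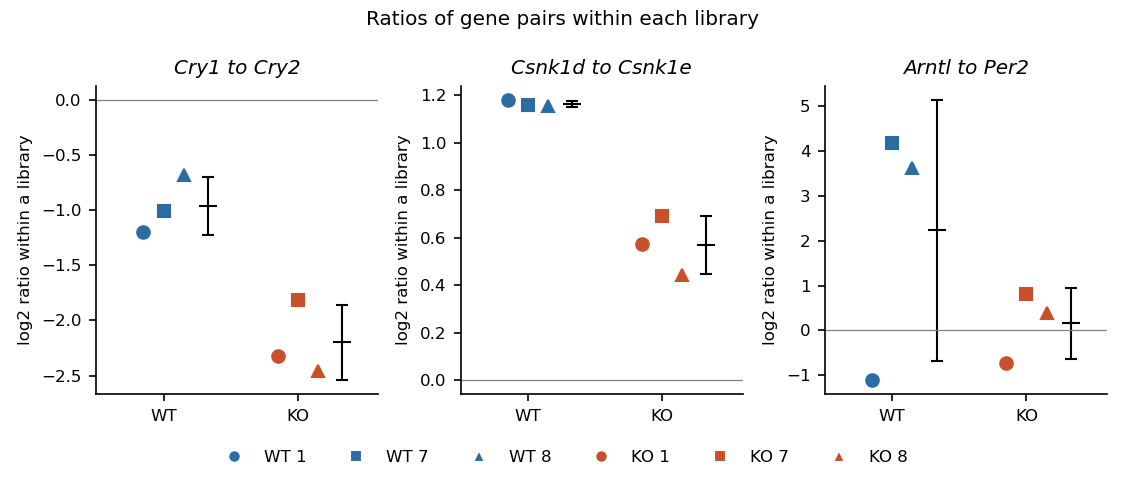
Log2 ratios of 3 gene pairs (FPKM + 0.1, vertical axes) within each of the 6 libraries, for WT (blue) and KO (orange) mice, with the replicate number given by the shape of the point and the mean ± SD (n = 3) in black. The ratios of *Cry1* to *Cry2* and of *Csnk1d* to *Csnk1e* do not overlap between the genotypes, whereas for *Arntl* to *Per2* WT replicate 1 lies under the KO libraries.

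By mean FPKM, which is per length and can be compared between genes, the order in WT muscle was *Csnk1d* (33.3), *Csnk1e* (14.8), *Cry2* (8.29), *Arntl* (8.003), *Per3* (6.06), *Clock* (5.08), *Per1* (4.62), *Cry1* (4.23), *Per2* (1.79) and *Npas2* (0.274). Neighbours from *Cry2* to *Per2* in this order overlapped in their WT libraries, while both kinases stood clear of each other and of *Cry2*. In KO muscle the order was *Csnk1d* (37.1), *Csnk1e* (25.1), *Per1* (17.2), *Cry2* (12.7), *Per3* (7.47), *Arntl* (3.53), *Per2* (3.198), *Clock* (2.92), *Cry1* (2.65) and *Npas2* (0.135). There *Csnk1e*, *Per1* and *Cry2* overlapped as neighbours, as did *Arntl*, *Per2*, *Clock* and *Cry1*. *Per1* stood in place 7 in WT and in place 3 in KO muscle.

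*Arntl*, *Npas2*, *Per2* and *Per3* followed an order of the libraries that crossed the genotypes. From high to low, *Arntl* ran WT 7, WT 8, KO 7, KO 8, KO 1 and WT 1, and *Npas2* differed from this only in the order of the last pair. *Per2* ran KO 1, WT 1, KO 8, KO 7, WT 8 and WT 7, which is nearly the reverse. Over the 6 libraries, *Arntl* had a Pearson's r of -0.99 with *Per3* (exact permutation p = 0.00417, Spearman's rho = -0.94, exact permutation p = 0.0167) and of -0.98 with *Per2* (exact permutation p = 0.00417, rho = -0.94, exact permutation p = 0.0167). Adjusted over the relations of *Arntl* with 12333 tested genes, the p of both was 1, and 0 of those genes passed. The smallest unadjusted exact permutation p over these genes was 0.00139, the lowest that 720 permutations of 6 libraries can give. A gene could therefore pass the adjustment only if many others had p-values as low. At an unadjusted p under 0.05, 398 of the 12333 genes passed, a smaller share than 0.05. *Per3* and *Per2* ranked 3 and 5 from the most negative r of these 12333 genes, of which 0.868% had an r over 0.9 in size. With WT replicates 7 and 8, the libraries farthest from the median of *Arntl*, left out, r was -0.99 for *Per3* and -0.86 for *Per2* (n = 4). For deviations from the mean of each genotype, r was -0.98 and -0.99.

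The ratio of *Arntl* to *Per2* gives this order in a single value. It was 0.466, 18.2 and 12.2 in WT replicates 1, 7 and 8 and 0.607, 1.77 and 1.30 in the KO replicates. Both libraries numbered 1 were below 1 and the other WT libraries lay far above all KO libraries. The log2 difference of -2.07 between the genotypes was within the spread of the WT libraries, with an SD of 2.9003 in WT and 0.80 in KO muscle (n = 3, exact permutation test, two-sided, p = 0.4). Without WT replicate 1 it was -3.73.

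*Npas2* varied with *Arntl* in the same direction (r = 0.88, exact permutation p = 0.0194, rho = 0.94, exact permutation p = 0.0167, and r = 0.78 without WT replicates 7 and 8), and was not among the genes over which p-values were adjusted. For *Clock*, *Cry1*, *Per1*, *Cry2* and *Csnk1e*, r with *Arntl* changed sign once those libraries were left out, which leaves WT replicate 1 and the KO libraries. *Clock*, the partner of *Arntl*, had an r of 0.76 over 6 libraries (exact permutation p = 0.0944, rho = 0.60, exact permutation p = 0.242) and of -0.78 over the other 4. For deviations from the genotype means, r of *Clock* with *Arntl* was 0.94, and it was 0.96 without WT replicate 1. *Per1* had an r of -0.46 (exact permutation p = 0.347, rho = -0.26, exact permutation p = 0.658), and *Csnk1e* an r of -0.051 (exact permutation p = 0.914, rho = -0.14, exact permutation p = 0.803). For deviations from the genotype means, r was -0.22 for *Per1* and 0.66 for *Csnk1e*. The permutations exchange libraries across the genotypes, so these p-values do not describe relations within a genotype. *Clock* was instead closest to *Cry1* among the 10 genes (r = 0.93, rho = 0.89), and ran opposite to *Per1* (r = -0.89, rho = -0.89), as a description with no test, since these 3 genes separate the genotypes.

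**Figure D3:**
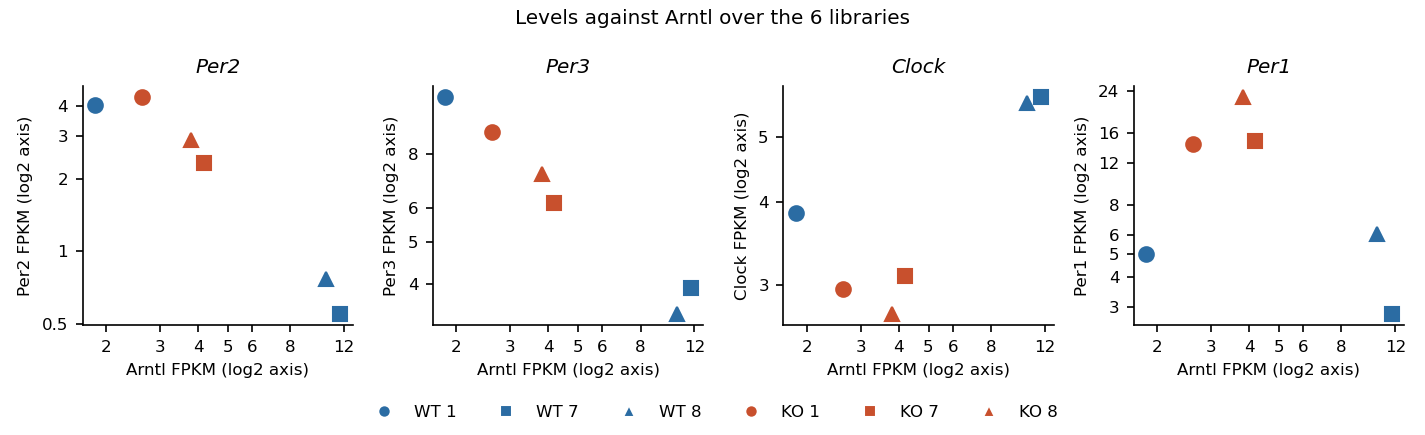
FPKM of *Per2*, *Per3*, *Clock* and *Per1* (vertical log2 axes) against FPKM of *Arntl* (horizontal log2 axis) in the 3 WT (blue) and 3 KO (orange) libraries, with the replicate number given by the shape of the point. The libraries of both genotypes fall along 1 descending line for *Per2* and *Per3*, from WT replicate 1 at 1.84 FPKM of *Arntl* to WT replicate 7 at 11.7 FPKM, whereas for *Clock* and *Per1* the KO libraries lie apart from the WT libraries.

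Over 10557 entries with 1 entry per symbol, a value above 0 in each library and a mean reaching 1 FPKM, the 10 clock genes themselves left out, the 5 genes most like *Arntl* by Pearson's r over the 6 libraries were *Ctr9* (0.99), *Yipf1* (0.98), *Car9* (0.98), *Prkcd* (0.98) and *Slc8a1* (0.98). *Prkcd*, for one, had 2.91, 8.89 and 8.55 FPKM across WT mice 1, 7 and 8 against 4.48, 4.71 and 5.02 FPKM across the KO mice. The most opposite were *Gpr116* (-0.99), *Lmbr1l* (-0.99), *Igtp* (-0.97), *Wipf3* (-0.97) and 1810009A15Rik (-0.97). For *Per1*, the 5 closest were *Glul* (0.99), *Tead3* (0.99), *Arfip2* (0.99), *Gm16172* (0.98) and *Tut1* (0.98). *Glul*, which encodes glutamine synthetase, read 53.2, 44.7 and 68.4 FPKM in WT mice 1, 7 and 8 and 102, 113 and 152 FPKM in KO mice 1, 7 and 8, a log2 fold change of 1.14 (limma, adjusted p = 0.0667). With 6 libraries such values describe the order of the libraries only.

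The second loop of the clock and its outputs, in which REV-ERB and ROR receptors act on *Arntl* and DBP, TEF and HLF act on D-boxes, were looked at through a list of 16 genes. Of these 15 were tested (*Rorb* was under the filter), 11 were higher and 4 lower in KO muscle, 0 had an adjusted p under 0.05 and 1, *Ciart*, was higher at an unadjusted p under 0.05, where 15.3% of all tested genes were higher and 10.9% lower. The median log2 fold change was 0.21, beside 0.010 over all tested genes. *Ciart*, a repressor of the CLOCK and BMAL1 pair that is listed as *Gm129*, measured 12.2, 3.78 and 2.63 FPKM in the WT mice (1, 7, 8) and 14.99, 8.47 and 27.6 FPKM in the KO mice (1, 7, 8). WT replicate 1 lay above KO replicate 7, so *Ciart* overlapped between the genotypes (log2 fold change 1.59, SE 0.61, limma, adjusted p = 0.158). The next in size were *Wee1* (0.73), *Dbp* (0.68) and *Timeless* (0.64), with adjusted p-values of 0.255, 0.304 and 0.288 (limma).

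Genes of this list also differed between the libraries of 1 genotype. *Dbp*, an output that the CLOCK and BMAL1 pair drives, had 36.2, 21.9 and 11.3 FPKM across WT mice 1, 7 and 8 against 43.8, 27.6 and 30.8 FPKM across the KO mice. *Nr1d1*, which encodes the repressor REV-ERBα, read 14.9, 44.9 and 26.9 FPKM in WT mice 1, 7 and 8 and 27.4, 48.9 and 36.7 FPKM in KO mice 1, 7 and 8. The libraries numbered 1 were thus the highest of their genotype for *Dbp* and the lowest for *Nr1d1*. Over the 6 libraries, r with *Arntl* was -0.93 for *Wee1*, -0.84 for *Dbp*, -0.77 for *Nr1d2* and 0.55 for *Nr1d1*, as a description.

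**Figure D4:**
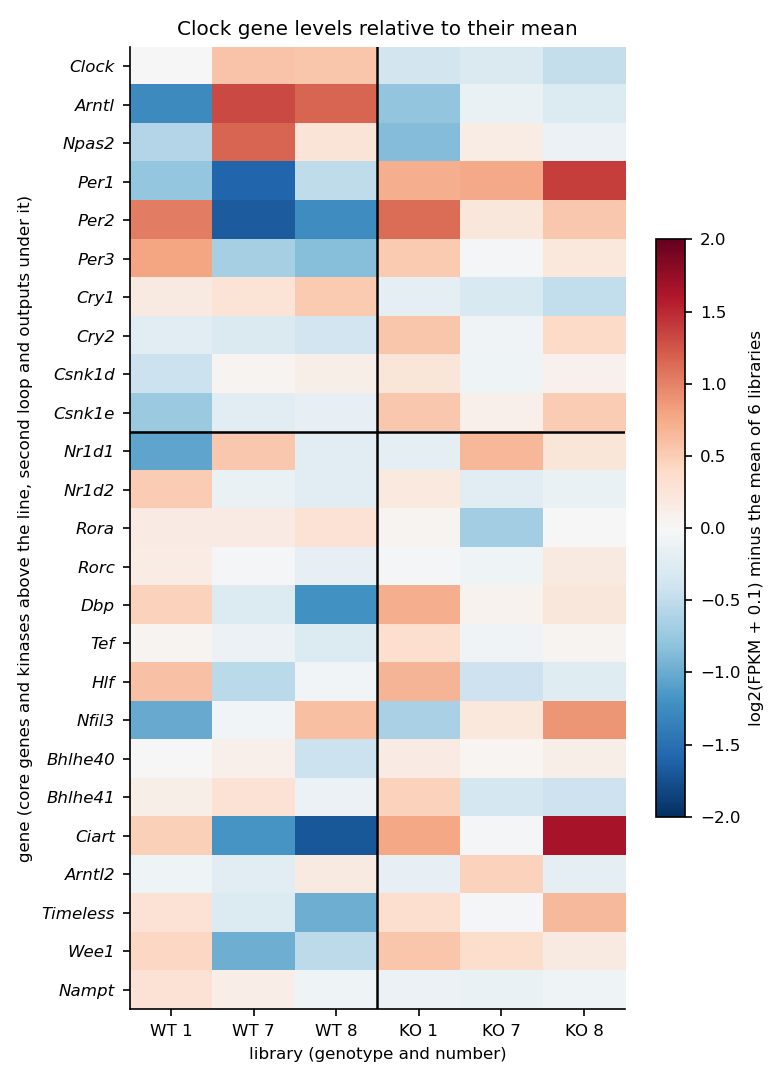
Log2(FPKM + 0.1) of the 10 genes (above the line) and of the 15 tested second loop and output genes (under it) in each library, as the difference from the mean of the gene over 6 libraries (colour, red for higher and blue for lower). *Arntl* and *Npas2* are red where *Per2* and *Per3* are blue in WT replicates 7 and 8, and the reverse holds in both libraries numbered 1, while *Per1* and *Csnk1e* split at the line between the genotypes.

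Of 19 genes that modify or degrade PER and CRY, 18 were tested, 8 were higher and 10 lower in KO muscle, 0 had an adjusted p under 0.05, and 4 were higher and 4 lower at an unadjusted p under 0.05 (15.3% and 10.9% of all tested genes). After correction for GC content 3 were past that threshold, *Csnk1g2* higher and *Ppp1cc* and *Gsk3a* lower, and *Gsk3a* had turned from 0.32 to -0.27. The median log2 fold change was -0.11. *Csnk1g2*, another casein kinase 1, measured 11.1, 12.9 and 16.5 FPKM in the WT mice (1, 7, 8) and 24.6, 26.0 and 23.6 FPKM in the KO mice (1, 7, 8) (log2 fold change 0.89, limma, adjusted p = 0.0667), and *Usp2*, a deubiquitinase and itself a clock output, had 51.8, 37.5 and 44.6 FPKM across WT mice 1, 7 and 8 against 83.0, 59.5 and 74.9 FPKM across the KO mice (0.70, limma, adjusted p = 0.0785). The libraries of neither gene overlapped between the genotypes. *Ppp5c* (0.47), a phosphatase, and *Ppp1cc* (-0.41), a catalytic subunit of protein phosphatase 1, had adjusted p-values of 0.098 and 0.0885 (limma). After correction for GC content the changes of *Csnk1g2*, *Usp2*, *Ppp5c* and *Ppp1cc* were 0.31, 0.39, 0.041 and -0.34.

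Genes driven by glucocorticoid or by acute stimuli, as *Per1* can be, were higher in KO muscle for 13 of 13 tested members of a list of 14. Of these, 6 had an unadjusted p under 0.05 (15.3% of all tested genes were higher) and 0 an adjusted p under 0.05 (limma). The median log2 fold change was 0.66, beside 0.010 over all tested genes. After correction for GC content the median of the list was 0.48. Then 4 of its genes had an unadjusted p under 0.05, where 5.37% of genes were higher and 5.43% lower. *Jun* turned to -0.15 after correction for GC content, and *Fkbp5* and *Sgk1* turned to -0.23 and -0.19 without WT replicate 1. The 4 largest were *Fos* (2.12, adjusted p = 0.396, limma), *Junb* (1.62, adjusted p = 0.0716), *Egr1* (1.58, adjusted p = 0.323) and *Nr4a1* (1.53, adjusted p = 0.0708). *Nr4a1*, an immediate early nuclear receptor, read 31.3, 20.7 and 35.3 FPKM in WT mice 1, 7 and 8 and 62.3, 67.7 and 133 FPKM in KO mice 1, 7 and 8, so it separated the genotypes and was highest in KO replicate 8, as *Per1* was. *Fos*, the classical immediate early gene, measured 14.9, 1.73 and 0.281 FPKM in the WT mice (1, 7, 8) and 9.67, 1.77 and 47.3 FPKM in the KO mice (1, 7, 8), and its groups overlapped. Leaving out WT replicate 1 gave log2 fold changes of 3.51 for *Fos* and 2.49 for *Egr1*, and leaving out WT replicate 8 gave 0.86 and 0.74. *Fkbp5*, a glucocorticoid target, had 5.93, 15.7 and 17.6 FPKM across WT mice 1, 7 and 8 against 13.7, 13.7 and 15.1 FPKM across the KO mice, lowest in WT replicate 1. The part of such stimuli in the level of *Per1* was not tested.

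**Figure D5:**
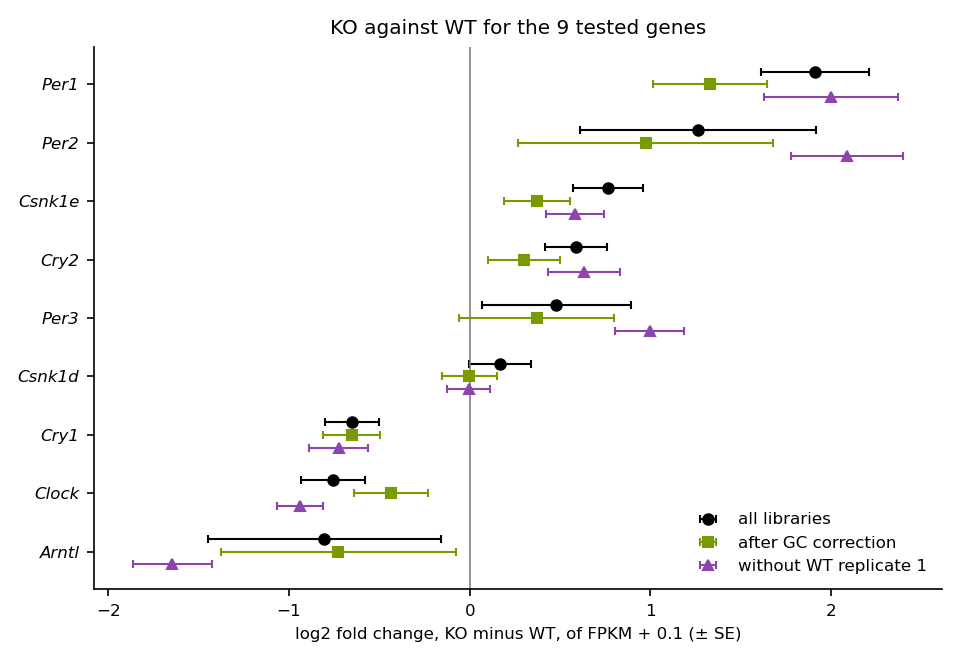
Log2 fold change (KO minus WT, horizontal axis, on the FPKM + 0.1 scale) ± SE of the 9 tested genes, with all 6 libraries (black circles), after correction of each library for GC content (green squares) and without WT replicate 1 (purple triangles). *Arntl*, *Per2* and *Per3* move away from 0 without WT replicate 1, and *Per1*, *Csnk1e*, *Cry2* and *Clock* move towards 0 after the correction, while *Cry1* stays at -0.65.

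Depth and composition also differed between the libraries. By steps of whole fragments in the low FPKM values, the WT libraries held 19910000 to 20880000 fragments and the KO libraries 14850000 to 19240000, so each KO library was less deep. Over all tested genes, log2 fold change rose with GC content (Spearman's rho = 0.70 across genes, which are not independent replicates). Genes of at least 60% GC minus genes under 44% GC had a median deviation of -0.79, -0.42 and -0.26 on the log2 scale in WT replicates 1, 7 and 8, and of 0.35, 0.73 and 0.40 in the KO replicates. After correction for GC content, *Per1* was the 1 gene of 9 that was higher, where 5.37% of genes were, and *Cry1* the 1 that was lower, where 5.43% were, at an unadjusted p under 0.05. With limma's array weights, which ranged from 0.355 in WT replicate 1 to 6.12 in WT replicate 7 and so rest largely on 1 WT library, 8 of the 9 genes, all but *Csnk1d*, had an adjusted p under 0.05, where 15.1% of all tested genes were called higher and 10.4% lower.

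The targeted gene *Kcnab2* read 0.233, 0.10 and 0.110 FPKM in WT mice 1, 7 and 8, and in the KO mice it was listed at 0 except for 0.0151 FPKM in KO mouse 7. Defining markers of skeletal muscle were present in each library, with 7 markers summing to 21964 to 32124 FPKM in WT and 35993 to 38003 FPKM in KO muscle, lowest in WT replicate 1 and with all KO above all WT libraries. The sum of 5 adipocyte markers, at 225 to 426 FPKM in WT and 274 to 529 FPKM in KO muscle, was highest in KO replicate 7 and, among WT, in replicate 1, and 0 of the 5 were at 0 in all libraries. Of these 5 markers, 5 were higher in KO muscle, and *Plin1* and *Cidec* lay above WT in all KO libraries, as 18.3% of all tested genes did. The same held for the muscle markers *Ckm*, *Acta1* and *Myh2*, for *Vwf* of endothelium and for *Hba-a1* of red blood cells. No marker of these lists had all KO libraries under all WT libraries. Sums for endothelial (35.8 to 47.0 FPKM), macrophage (2.88 to 12.9 FPKM), Schwann cell (12.1 to 82.8 FPKM), fibroblast (356 to 549 FPKM), tendon (20.2 to 111 FPKM) and red blood cell (208 to 439 FPKM) markers overlapped between the genotypes. The part of other cell types, of depth and of GC content in the levels of the clock genes was not tested, other than by the correction for GC content.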

How the data were processed

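Libraries were made with a stranded mRNA kit from total RNA of GAS muscles, per the labels. The authors aligned reads with TopHat to GRCm38 and obtained FPKM with Cufflinks, and the deposited FPKM of 37979 entries in 6 libraries were the only values used. Tool versions, the annotation release and the use of strand are not given in the sources used here, so antisense partners (*D930015M05Rik* for *Cry2*) may share fragments. Each library is 1 mouse. The limma p-values set the difference between genotypes against the spread between mice of a genotype, with a variance that borrows from all tested genes. The permutation p-values come from exchanging libraries.

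The members, lists and tests were chosen with earlier results of these data known. Log2(FPKM + 0.1) was tested with limma 3.58.1 (R 4.3.3) with a variance trend for 12334 genes whose mean reached 0.5 FPKM, and p-values were adjusted by Benjamini and Hochberg. The limma fit was tested on simulated data. Single values were compared by exact permutation tests, two-sided (Python 3.11.15 with numpy 2.4.6). GENCODE vM21 gave the GC content of 97.2% of tested genes, and a loess curve of span 0.3 was subtracted for the GC correction. Depth was estimated from low FPKM of genes with 1 transcript, where 91.2% to 96.2% of values were whole fragments within 0.15. Any pair of libraries had at most 1 equal value over 14983 genes. Named genes are the 10 members, the 4 largest of each list, and the 5 genes most like *Arntl* or most opposite and the 5 most like *Per1*. *Camta1*, *Nr1d1*, *Nr1d2*, *Rora*, *Gsk3a*, *Jun*, *Sgk1*, *Fkbp5*, *Plin1*, *Cidec*, *Ckm*, *Acta1*, *Myh2*, *Vwf* and *Hba-a1* were named after their values were seen. Gene symbols of 4 listed genes were matched by identifier to older names. Alternatives covered the pseudocount, filter, scaling, variance model, array weights, replicate block, GC correction and left-out libraries. Reads, other tissues and old mice were not analysed here.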

Additional observations from a re-analysis of the deposited data

How the results depend on the processing

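Of the 9 tested genes, *Csnk1d* alone changed sign (-0.0044 to 0.27 with each library left out), with log2 fold changes of -0.0023 after GC correction, -0.0023 with GC correction and replicate block together, -0.0044 without WT replicate 1 and -0.085 without both libraries numbered 1. The other 8 kept their direction and were not called in 18 of 19 alternatives, and all 8 were called only with array weights. The count over all tested genes, 31 higher and 9 lower, became 7 and 4 at a pseudocount of 1 FPKM, 9 and 11 with no filter, 1 and 0 without genes listed at 0 in any library, 20 and 9 with libraries shifted to the same median, 11 and 7 with quantile normalization, 12 and 7 without a variance trend, 1863 and 1284 with array weights, 6 and 8 after GC correction, and 6 and 5 without both libraries numbered 1. With each library left out, 6 to 19 genes were called higher and 5 to 19 lower. The log2 difference of the ratio of *Clock* to *Npas2* turned to 0.059 at a pseudocount of 0.01 FPKM and to 0.053 without WT replicate 1 (range -0.54 to 0.053 with each library left out). The cause was not tested.

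Over the tested genes as a whole, the replicate numbers 1, 7 and 8 did not pair the libraries. Pairing was taken to need a correlation over 0.1 for every same-numbered pair. Deviations of same-numbered libraries from their genotype means correlated at -0.025, -0.080 and 0.034 over the tested genes. Differently numbered WT and KO libraries ranged from -0.066 to 0.086. These values cannot tell whether a few genes follow the numbers. *Arntl* and *Npas2* ran 7, 8, 1 and *Per2* ran 1, 8, 7 from high to low in both genotypes. The order of the other members differed between the genotypes. Adding the replicate block changed the SE of *Arntl* from 0.64 to 0.41 and that of *Per2* from 0.65 to 0.38. The SE of *Cry1*, *Csnk1d* and *Csnk1e* rose. With the replicate block 6 genes were called higher and 7 lower (5 and 7 with GC correction), and 0 of the 9 genes described here were called. The FPKM of *Npas2* and *Kcnab2* rest on few fragments, which limits the precision of their values.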
